A study of Mus musculus with 6 samples.

Results

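The genes described here are the tissue kallikreins Klk5, Klk6, Klk7, Klk8, Klk10, Klk11, Klk13 and Klk14 and the inhibitor gene Spink5. They were taken by symbol, and all 9 were found among the 32285 genes of the count matrices. The study followed hair regeneration in dorsal skin after depilation, with 1 single-cell library at each of 6 times, at 0, 4 and 16 hours (h) and at 2, 4 and 6 days (d). Values given in a run stand in that order. All mice were wildtype adult males of the FVB strain, aged p55-57, with the back skin shaved and waxed. Each library held cells of 2 mice, mixed in equal number, and nothing in the count matrices marks the mouse, so each time point is 1 sample and every interval below covers counting error only. Cells were counted by UMI, the molecular tag that marks a captured transcript. A level is given in CPM, counts per 1e+06, that is the UMIs of a gene divided by all UMIs of the cells of a type in a library and scaled to that total.

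Kallikreins are secreted serine proteases that are made as inactive precursors. In the outer epidermis they cleave the proteins that hold dead cells together, and so govern shedding. Spink5 encodes LEKTI, a secreted inhibitor of several kallikreins, and its loss causes Netherton syndrome, in which the skin barrier sheds too early. Kallikreins have also been described in the hair follicle, whose upper part is continuous with the epidermis and sheds in a similar way.

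The libraries held 61031 barcodes, of which 50502 cells were kept, with 72634390 to 112370376 UMIs in a library. Between 7 and 47 barcodes were shared by a pair of libraries. Cell types were named from marker genes after clustering without the 9 genes, and each name below means cells like that type. IFE.SB is the suprabasal interfollicular epidermis, split into spinous cells (6226) and granular cells (1479), the deepest of these types with a median of 31701 UMIs a cell. IFE.B is its basal layer (16781 cells). The upper follicle has a basal part, uHF.B (6094 cells), and a suprabasal part, uHF.SB (4570 cells), and IB is the inner bulge, the keratin 6-positive layer around the club hair (370 cells). Genes that move with the members helped to make these clusters, so a test between cell types describes where the members lie and is not independent of the clustering.

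The 8 kallikrein genes lie on chromosome 7, all on the + strand, within 161 kb from position 43690418 to 43851181 (GRCm38/mm10, GENCODE vM21). In genomic order these 8 run Klk14, Klk13, Klk11, Klk10, Klk8, Klk7, Klk6 and Klk5, with any other genes between them left out.  The gene 2310002F09Rik overlaps Klk14, Klk13, Klk11, Klk10 and Klk8 on the other strand. On the same strand Gm44817 overlaps Klk14 and Gm44814 overlaps Klk13, so the counts of Klk14 and Klk13 may be affected by the overlap. The 3 promoters printed here belong to Klk8, Klk13 and Klk10, the members with the lowest unadjusted p over time in uHF.SB cells. They are the 250 bases before the RefSeq start (GRCm38.p6, + strand), with every CACCC box on either strand and every GTTAAAA in capitals.
Klk8, chr7:43797327-43797576: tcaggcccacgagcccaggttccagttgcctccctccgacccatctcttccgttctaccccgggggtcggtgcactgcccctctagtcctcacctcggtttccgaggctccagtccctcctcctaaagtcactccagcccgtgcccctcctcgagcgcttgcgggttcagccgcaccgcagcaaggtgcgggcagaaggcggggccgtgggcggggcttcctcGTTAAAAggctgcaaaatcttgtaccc
Klk13, chr7:43712317-43712566: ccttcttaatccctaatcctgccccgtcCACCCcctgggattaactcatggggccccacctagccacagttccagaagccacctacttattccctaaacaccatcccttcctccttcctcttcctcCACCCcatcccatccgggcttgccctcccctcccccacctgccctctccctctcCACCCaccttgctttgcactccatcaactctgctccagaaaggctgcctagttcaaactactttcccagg
Klk10, chr7:43780804-43781053: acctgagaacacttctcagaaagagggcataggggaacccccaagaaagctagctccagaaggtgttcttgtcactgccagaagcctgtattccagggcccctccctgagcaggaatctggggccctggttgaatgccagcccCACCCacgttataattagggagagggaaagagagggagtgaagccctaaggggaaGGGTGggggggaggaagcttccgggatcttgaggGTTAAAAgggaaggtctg

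Spink5 lies apart from them on chromosome 18, from 43963235 to 44022501. RefSeq promoters, each of 250 bases before and 50 after a start, matched 8 of the 9 members, with 10 entries. Spink5 was the member with no entry, so the motif counts below cover the kallikreins only. CACCC, the short box read by Krüppel-like factors, was found on either strand in 7 of the 10 entries (those of Klk5, Klk6, Klk7, Klk10, Klk11, Klk13 and Klk14), beside 57.5% of all 32851 promoters. GTTAAAA, a variant of the TATA box picked after the sequences were seen, was found in Klk6, Klk8 and Klk10, beside 3.41% of all promoters. It began 27 bases before the RefSeq start in Klk8, 18 bases before it in Klk10 and 69 bases before it in Klk6. The distance in Klk6 is farther than a TATA box usually lies. For Klk10 the GENCODE start, 43781035, lies within the printed bases, so the place of its motif depends on the start used. With the GENCODE start the motif lies after the start and not before it. TGANTCA, the AP-1 motif, and TATAAA, the usual TATA box, were in 0 of the 10, beside 7.81% and 13.6% of all promoters.

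The members differed in place, though most were shared between cell types. Granular cells were 2.93% of all cells, with 10.9% of the UMIs of all cells given a type, and held 69.7% of the Spink5 UMIs, 66.6% of Klk5, 47.3% of Klk7 and 41.1% of Klk8. The uHF.SB cells were 9.05% of cells, with 9.28% of those UMIs, and held 67.4% of Klk13 and 53.7% of Klk6. They also held 42.3% of Klk7 and 34.0% of Klk8, and granular cells held 35.7% of Klk6. Follicle cluster 4, the part of uHF.SB with epidermal markers described further on, held 35.3% of all Klk13 UMIs and 29.2% of all Klk6 UMIs. IB cells were 0.733% of cells, with 0.542% of the UMIs of all cells given a type. They held 15.1% of Klk10 and 63.2% of Klk14, which had only 57 UMIs in all cells kept. More of Klk10 lay in IFE.B (33.0%) and uHF.SB (30.7%). The largest part of Klk11 lay in IFE.B (34.0%), which was 33.2% of cells.

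**Figure D1:**
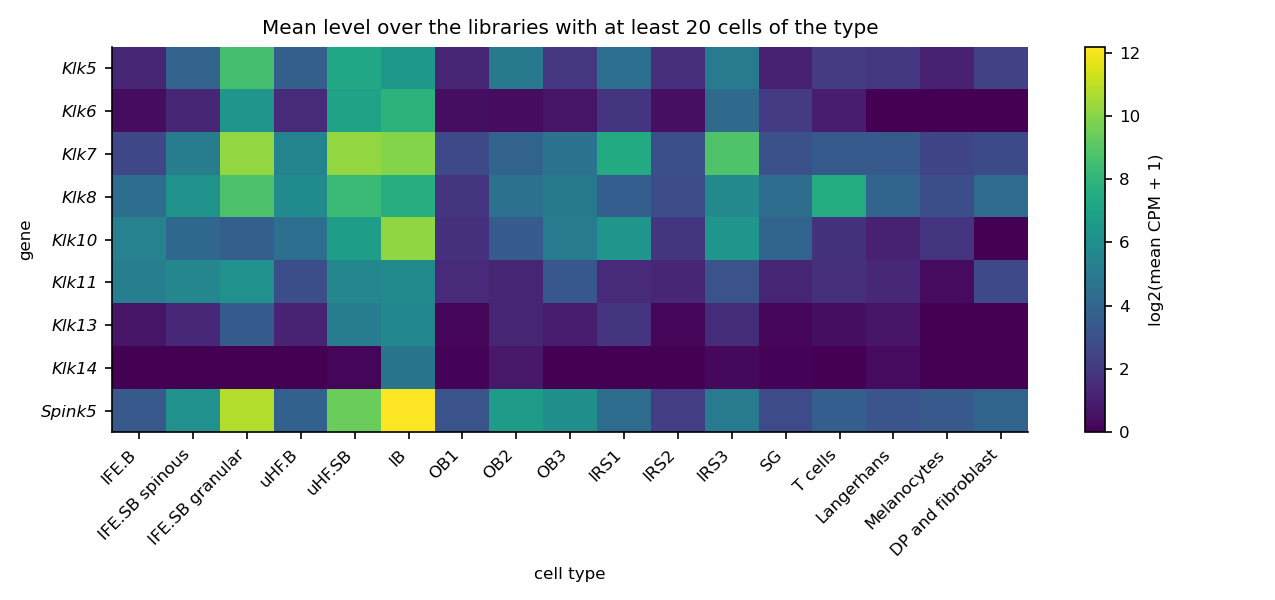
Heat map of the mean level of each of the 9 genes (vertical axis) in each cell type (horizontal axis), as log2(mean CPM + 1) over the libraries with at least 20 cells of the type. Granular, uHF.SB and IB cells hold the brightest cells, Klk14 stands out in IB alone, and Klk8 is also bright in T cells.

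In order of mean level, Klk5 was highest in granular cells at 383 ± 156 CPM (SD, n = 6 libraries), followed by uHF.SB at 149.9 ± 66.3 CPM (SD, n = 6 libraries). The values of these neighbours did not overlap. Klk7 was nearly the same in uHF.SB (1194 ± 530.4 CPM (SD, n = 6 libraries)) and granular cells (1179 ± 557 CPM (SD, n = 6 libraries)), with overlapping ranges. For Klk8 the order was granular (432 ± 246 CPM (SD, n = 6 libraries)), uHF.SB (319.8 ± 305 CPM (SD, n = 6 libraries)), IB (192 ± 184 CPM (SD, n = 4 libraries)) and T cells (180.3 ± 38.5 CPM (SD, n = 6 libraries)), and each overlapped the next. Klk6, Klk10, Klk13, Klk14 and Spink5 each had the highest mean in IB over the 4 libraries with enough IB cells, with ranges that overlapped the next type in all 5. For Klk6 and Klk13 this order rested on the 6 d library. Without it, a check added after the values were seen, the IB means were 47.6 CPM for Klk6 and 0.383 CPM for Klk13, below the uHF.SB means of 122 and 1.56 CPM in the same 3 libraries. For Spink5 the order was IB (4638 ± 4993 CPM (SD, n = 4 libraries)), granular (1773 ± 764 CPM (SD, n = 6 libraries)) and uHF.SB (668 ± 202 CPM (SD, n = 6 libraries)), and uHF.SB did not overlap the type after it, the outer bulge cells OB2 (104 ± 53.5 CPM (SD, n = 6 libraries)). Klk11 was spread more evenly over these types, with granular cells at 70.9 ± 14.8 CPM (SD, n = 6 libraries) and spinous cells at 48.8 ± 6.66 CPM (SD, n = 6 libraries), and the ranges of granular, IB, uHF.SB and spinous cells overlapped in turn.

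To see how the members change between layers of the epidermis, UMI counts summed per library were compared between IFE.SB and IFE.B with edgeR's quasi-likelihood test, the library as a block, and adjustment over all genes tested. Of the 8 members tested, 7 were higher in IFE.SB and 1, Klk10, was lower, while 29.6% of the 13489 genes tested were called higher and 33.2% lower. The members' median log2 fold change was 5.17, beside -0.04 over all genes. Klk14 was too low to be tested.

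Klk5, the tryptic enzyme that starts the kallikrein cascade, ranged from 0.794 to 2.57 CPM in IFE.B and from 107 to 332 CPM in IFE.SB (log2 fold change 7.04 ± 0.15 (SE), adjusted p = 5.34e-09). Klk7, the chymotryptic enzyme that cleaves corneodesmosin, ranged from 1.75 to 9.83 CPM and from 230.4 to 1009 CPM (log2 fold change 6.95 ± 0.38 (SE), adjusted p = 1.54e-06). Spink5 ranged from 3.6 to 20.3 CPM and from 436 to 1597 CPM (log2 fold change 6.73 ± 0.29 (SE), adjusted p = 4.63e-07). In none of the 3 did the libraries of the layers overlap. Klk6, Klk8 and Klk13 had log2 fold changes of 6.68, 3.65 and 3.20, and Klk11 one of 0.88 (largest adjusted p of the 4 = 5.49e-05). Klk10 was at 33.7, 110.0, 14.6, 29.2, 22.3 and 35 CPM from 0 h to 6 d in IFE.B, against 12.2, 24.5, 6.4, 12.4, 11.5 and 20.5 CPM from 0 h to 6 d in IFE.SB (log2 fold change -1.12 ± 0.20 (SE), adjusted p = 0.00122). The 4 h library stood highest in both layers, and without the library block the adjusted p was 0.0553.

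Within IFE.SB, a comparison added after the clusters were seen set granular against spinous cells, where 29.5% of 11966 genes were called higher in granular cells and 28% lower. All members but Klk10 and the untested Klk14 were higher in granular cells, 7 of 8 tested, with a median log2 fold change of 3.99 beside -0.02 over all genes. The largest were Klk6 (6.06), Klk7 (5.64), Klk5 (5.17) and Spink5 (4.89), and the smallest was Klk11 (0.75). Klk10 gave log2 fold change -0.33 ± 0.24 (SE), adjusted p = 0.259, and -0.74 with adjusted p = 0.00113 without the 6 d library.

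Over the 6 times, Spink5 in granular cells was at 3029.7, 2032, 1463, 1136, 938 and 2039 CPM from 0 h to 6 d. The values were ordered downward from 0 h to 4 d and then stood higher at 6 d. Klk7 was at 1299, 1367, 1116, 590.4, 614 and 2091 CPM from 0 h to 6 d, lowest at 2 d and 4 d and highest at 6 d. Klk5 was at 430.5, 261, 327, 263, 341 and 675 CPM from 0 h to 6 d, and Klk8, the enzyme also called neuropsin, at 399.9, 315, 299.7, 243, 414 and 917 CPM from 0 h to 6 d. Both had their highest value at 6 d.

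Klk6, a trypsin-like member best known from the nervous system, had a different course in granular cells, at 16, 232, 119, 21.5, 10.1 and 77.9 CPM from 0 h to 6 d. Its 4 h value was the highest and its 4 d value the lowest. Klk13, another trypsin-like member, lay between 3.02 and 33.2 CPM with 6 d highest, Klk11 between 57.9 and 98 CPM, and Klk10 between 4.49 and 25.2 CPM. Spinous cells were low in most members, yet their Klk8 was at 15, 20.3, 52.1, 56.2, 127 and 162 CPM from 0 h to 6 d. That series had its lowest value at 0 h and its highest at 6 d.

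The summed level of the 10 granular marker genes was also lowest at 2 d and 4 d and highest at 6 d, at 31358, 12795, 16792, 3385, 3080.5 and 46333 CPM from 0 h to 6 d, with none of the 10 at 0 in any library. Lor, which encodes the cornified envelope protein loricrin, ran from 27860 CPM at 6 d down to 1166 CPM at 4 d. The part of this in the members' values was not tested.

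A spline of time in hours with 3 degrees of freedom, which leaves 2 residual degrees of freedom, was fitted to the 6 IFE.SB sums with edgeR. It called 0 of 12499 genes, 0% (385 at an unadjusted p under 0.05, and 139 called by DESeq2), and so 0 of 8 members. The lowest unadjusted p among the members were 0.00288 for Klk13 (adjusted p = 0.863 with edgeR), 0.00693 for Klk7 and 0.00841 for Klk8 (adjusted p = 1.00 for both with edgeR). In granular cells alone and in spinous cells alone the test also called 0 genes, of 11112 and 11550 (555 and 128 at an unadjusted p under 0.05). DESeq2 called Klk7, Klk8 and Klk13 in IFE.SB (adjusted p = 0.0322, 0.0307 and 0.00101). Without the 4 h library edgeR called Klk5, Klk7, Klk8 and Klk13 (adjusted p = 0.0257, 0.00431, 0.00301 and 0.000323), and without the 0 h library Klk6 (0.0382), in fits with 1 residual degree of freedom. Over all genes, the fits with 1 library left out called 0 to 461, the most without 4 h.

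**Figure D2:**
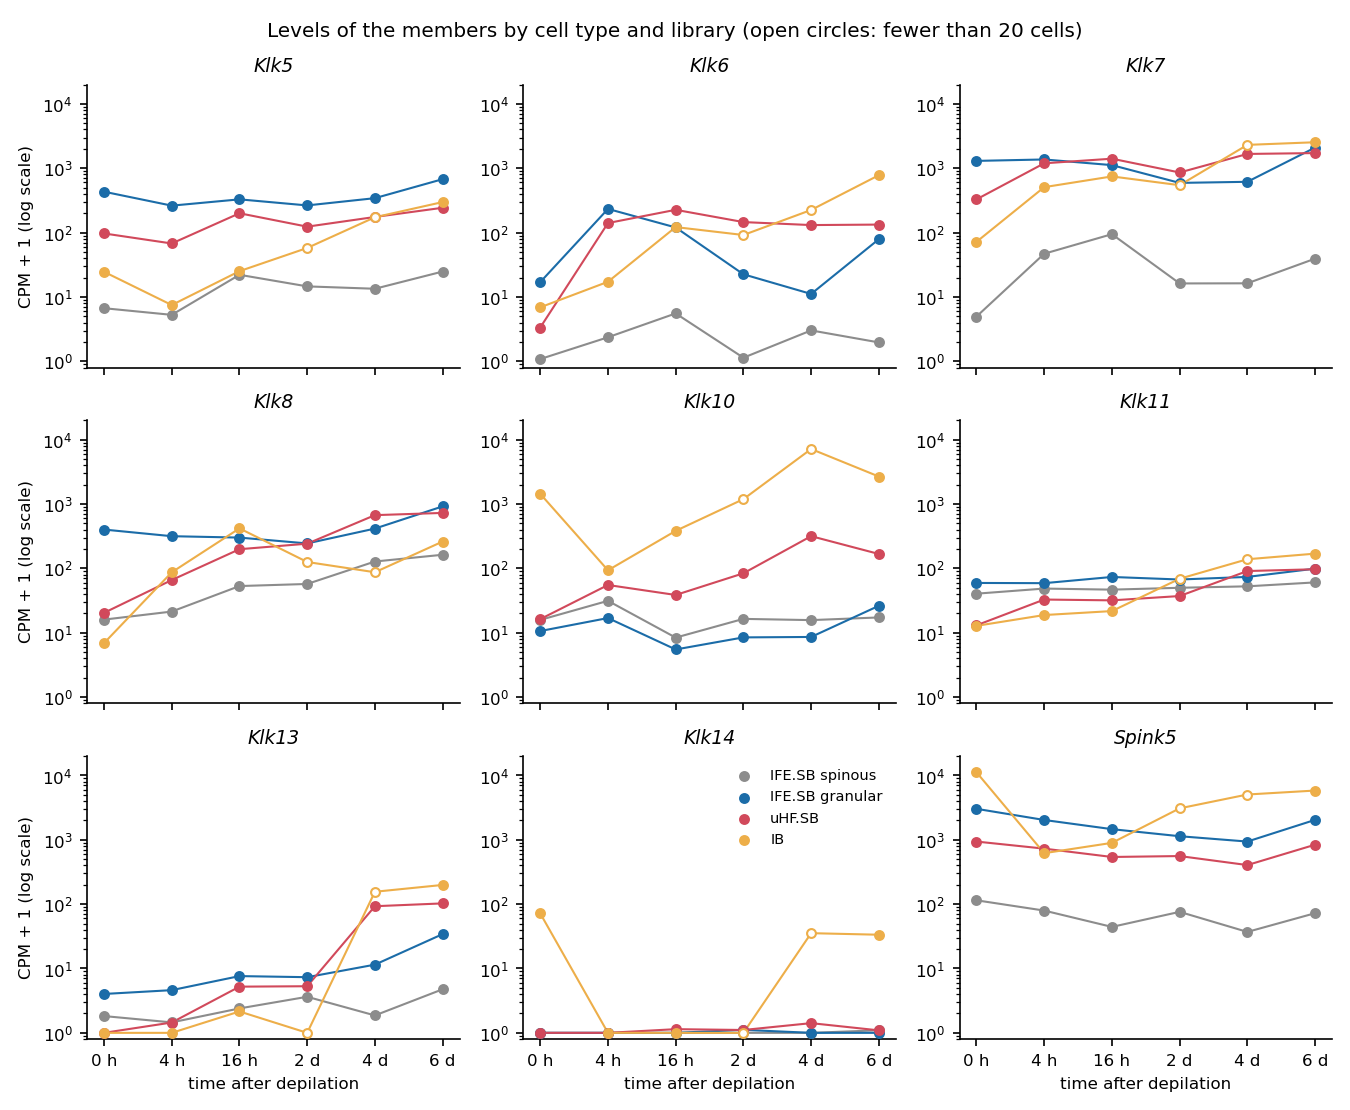
Level of each of the 9 genes (CPM + 1, log axis) against time after depilation in spinous, granular, uHF.SB and IB cells, with 1 point per library and open circles for fewer than 20 cells. In uHF.SB cells Klk8 and Klk13 have their 2 highest values at 4 d and 6 d, while Spink5 stays between 404 and 938 CPM.

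In the upper follicle, every member tested was higher in the cells named suprabasal. These include follicle cluster 4, described further on, which scored highest for spinous epidermal markers. Of the uHF.SB UMIs it held 5763 of 7308 for Klk5, 14087 of 18137 for Klk8 and 20675 of 26778 for Spink5. For Klk10 it held 550 of 6043. The comparison was not run without these cells. All 8 members tested were called higher in uHF.SB than in uHF.B, where 28.7% of 12274 genes were called higher and 30.3% lower. Their median log2 fold change was 4.55, beside -0.02 over all genes. Klk6 had the largest difference (log2 fold change 6.48 ± 0.22 (SE), adjusted p = 1.66e-08), followed by Spink5 (6.06), Klk7 (5.28), Klk13 (4.89) and Klk5 (4.20). Klk11 gave 3.02, Klk8 2.57 and Klk10 2.33, the smallest (adjusted p = 0.00856).

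Klk8 in uHF.SB cells was at 19.4, 64.9, 197, 241, 670.3 and 726 CPM from 0 h to 6 d. Each library was higher than the one before it, with 95% Poisson intervals of 15 to 24.6 CPM at 0 h and 709.9 to 742 CPM at 6 d. Klk13 had 0 UMIs at 0 h, which allows a level of up to 0.88 CPM, and 1 UMI at 4 h. The 4 later libraries stood at 4.22, 4.3, 91.9 and 102 CPM, with 885 and 1097 of its UMIs in the 4 d and 6 d libraries against 40 or fewer in each earlier one. Klk10 was at 15.3, 54.1, 37.6, 82.8, 316 and 166 CPM from 0 h to 6 d. Klk11, a trypsin-like member, was at 12, 31.8, 30.8, 36.1, 89.9 and 95.8 CPM from 0 h to 6 d. Both were lowest at 0 h and had their higher values at 4 d and 6 d.

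Klk6 was at 2.35, 139.6, 225, 145, 129.8 and 132 CPM from 0 h to 6 d, with the 0 h library far below the other 5. The 4 h level rested on few cells, since 282 of its 312 UMIs came from 8 cells of the follicle cluster 4 described further on. Klk7 was at 327, 1191, 1405, 857, 1666 and 1718 CPM from 0 h to 6 d, also lowest at 0 h. Klk5 was at 95.9, 66.7, 199, 122, 174 and 242 CPM from 0 h to 6 d, with 4 h lowest. Spink5 did not share this pattern and was at 938, 728, 539.9, 558, 404 and 838 CPM from 0 h to 6 d, with its highest value at 0 h and its lowest at 4 d.

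Sequencing depth per cell differed between libraries, so each cell was also thinned to 2000 UMIs, which kept 328 of 329 uHF.SB cells at 0 h and 1331 of 1369 at 4 d, the library that lost the most. The share of thinned uHF.SB cells with a Klk8 UMI was 2.13, 4.05, 16.1, 30.2, 54.5 and 57.9% from 0 h to 6 d, against 12.5% at 0 h and 84.6% at 6 d without thinning. For Klk13 the thinned shares were 0, 0, 0.322, 0.78, 12.2 and 15.2% from 0 h to 6 d. For Klk7 they were 18.6, 31.6, 35.1, 56.3, 75.8 and 76.6% from 0 h to 6 d. The later libraries were thus also higher in the share of cells. In T cells, which gave the background, Klk7 and Klk13 reached at most 2.79% and 0.442%.

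The time test called 0 of 11549 genes in uHF.SB, 0% (448 at an unadjusted p under 0.05, and 121 called by DESeq2), and so 0 of 8 members. Unadjusted p was 0.00189 for Klk13, 0.002 for Klk8, 0.00621 for Klk10 and 0.0112 for Klk11, with adjusted p of 0.659, 0.659, 0.909 and 1.00 from edgeR. The members' median trend from 0 h to 6 d was 1.97 on the log2 scale, beside -0.04 over all genes. Other settings called Klk8 in 6 of 18 cases and Klk13 in 6 of 17, among them the DESeq2 test (adjusted p = 4.46e-07 and 1.62e-09). The fit without the 0 h library called Klk8, Klk10, Klk11 and Klk13 (adjusted p = 0.0151, 0.00407, 0.0286 and 0.0321 with edgeR), with 1 residual degree of freedom left, as in each of the fits that follow. Klk13 was also called without the 16 h, 2 d, 4 d or 6 d library (adjusted p = 2.63e-05, 0.0026, 0.000102 and 2.25e-05 with edgeR). Klk8 was called without the 16 h, 4 d or 6 d library (adjusted p = 0.0408, 0.0282 and 0.0235 with edgeR), and Klk10 and Klk11 without the 4 h library (0.00308 and 0.025). Over all genes, the fits with 1 library left out called 13 to 239, where the fit to all 6 libraries called 0.

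The uHF.SB cells were themselves mixed. When the follicle cells were clustered again, most fell into cluster 3, led by Defb6, Cst6 and Krt79, or cluster 4, led by Flg, Krt1 and Krt10, which are also genes of the suprabasal epidermis. Cluster 3 made up 28.9, 33.6, 35.2, 49.9, 62.3 and 50.2% from 0 h to 6 d of uHF.SB cells. The summed level of the 6 uHF.SB markers was 24866, 24595, 32294, 55560.4, 90404 and 72375 CPM from 0 h to 6 d, with none at 0. It was higher in the later libraries, as were Klk8 and Klk13, and its part in their values was not tested.

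Both clusters had the low 0 h and high 4 d and 6 d values of Klk8 and Klk13. Klk8 was at 4.94, 21.3, 57.8, 131, 372 and 368 CPM from 0 h to 6 d in cluster 3, and at 23.8, 83.6, 262, 318, 1029 and 946 CPM from 0 h to 6 d in cluster 4. Klk13 stood at 104 and 111 CPM at 4 d and 6 d in cluster 3 and at 81.9 and 97.9 CPM in cluster 4, with no UMI at 0 h in either. Klk10 differed between the clusters, at 50.6, 76.3, 62.5, 214, 578 and 413 CPM from 0 h to 6 d in cluster 3, while cluster 4 ranged from 3.97 to 47.8 CPM. Every library had more Klk10 in cluster 3. Klk6 was highest at 2 d in cluster 3 (295 CPM) and at 16 h in cluster 4 (301 CPM). In the clusters taken alone the time test called 0 of 9784 and 0 of 10507 genes with edgeR (587 and 316 at an unadjusted p under 0.05), with adjusted p = 0.146 for both Klk8 and Klk13 in cluster 3 and 0.560 for both in cluster 4.

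**Figure D3:**
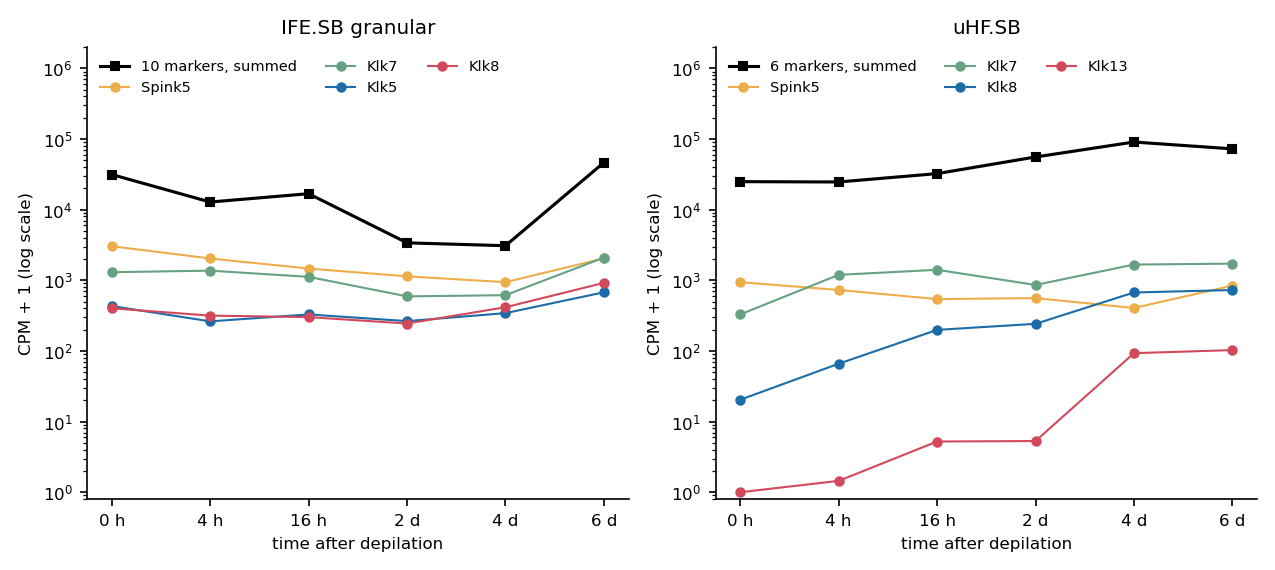
Summed level of the marker genes of granular cells (left) and uHF.SB cells (right) with 4 members each (CPM + 1, log axis) against time after depilation, 1 point per library. The granular markers dip to 3385 and 3080.5 CPM at 2 d and 4 d together with Spink5 and Klk7, and the uHF.SB markers are highest at 4 d (90404 CPM), where Klk8 and Klk13 are also far above their 0 h values.

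Between uHF.SB and IFE.SB, 1 of 8 members tested was called higher in uHF.SB and 0 lower, beside 15% and 17.2% of 12305 genes. The cells of cluster 4 were part of uHF.SB here, and the comparison was not run without them. The member called was Klk10 (log2 fold change 2.34 ± 0.52 (SE), adjusted p = 0.0105), at 15.3 to 316 CPM in uHF.SB and 6.4 to 24.5 CPM in IFE.SB. With no filter on low counts its adjusted p was 0.0727. Klk6 (2.03, adjusted p = 0.0586) and Klk7 (1.08, adjusted p = 0.0859) did not pass. Klk6 did with DESeq2 on all libraries (1.94, adjusted p = 0.0354) and without the 4 h library (adjusted p = 0.0462 with edgeR), and without the 0 h library both did, with log2 fold changes of 2.45 and 1.47 (adjusted p = 0.0215 and 0.00648). For Klk8, log2 fold change -0.13 ± 0.58 (SE), adjusted p = 0.897 was obtained, and the sign turned to 0.38 without the 0 h library and to 0.11 without the 4 h library.

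The IB cells were few, with 22, 113, 97, 11, 12 and 115 cells from 0 h to 6 d, so the 2 d and 4 d libraries entered no test and no time test was run. They also differed in kind. At 0 h, 19 of the 22 had fallen into cluster 7 of the whole skin and 3 into cluster 3, the uHF.SB cluster. Cluster 7 scored 2.31 for the markers of an inner root sheath type and 2.26 for those of OB2, and has Krt75 among its leading genes. At 4 h 81 of 113 and at 16 h 47 of 97 came from cluster 5, an outer bulge cluster led by Krt24 and Ccn2, and at 6 d 64 came from cluster 7 and 50 from cluster 3. Krt75, a keratin of the companion layer and inner bulge, was at 1202, 30.8, 23, 11.3, 0 and 1276 CPM from 0 h to 6 d. The sum of the 9 IB markers was 7129, 7082, 6903, 3726, 2992 and 7869 CPM from 0 h to 6 d, with 1 of the 9 at 0 at 4 h and 2 at 4 d.

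Spink5 in IB cells was at 11212, 619, 895, 3081, 5056 and 5826 CPM from 0 h to 6 d. The 0 h level was the highest of any member in any of these cell types. In cluster 7 cells it was 12441 CPM at 0 h, 5178 at 4 h, 1784 at 16 h and 6639.9 at 6 d. The cluster 5 cells had 106 CPM at 4 h and 542 at 16 h. The cluster 3 cells had 719 CPM at 4 h and 1075 at 16 h, against 4820.4 at 6 d. Few cells gave some of these levels, with 11 and 12 in cluster 7 and 16 and 38 in cluster 3 at 4 h and 16 h.

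Klk10 in IB cells was at 1438, 92.3, 381, 1189, 7154 and 2672 CPM from 0 h to 6 d. At 0 h, 243 of its 244 UMIs came from 2 of the 3 cells of cluster 3, and the 19 cells of cluster 7 had 1 UMI. At 6 d the level was 4960.0 CPM in the cluster 3 cells and 1036 CPM in the cluster 7 cells. The IB cells with most Klk10 were thus those that lay with the upper follicle in the clustering of all cells.

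Klk14, a trypsin-like enzyme that LEKTI inhibits, was rare. IB cells had 12 Klk14 UMIs in 7 cells at 0 h (70.7 CPM, 95% Poisson interval 36.5 to 123), 22 UMIs in 12 cells at 6 d (32.5 CPM, 20.4 to 49.2) and 2 UMIs at 4 d. The counts were 0 at 4 h, 16 h and 2 d, which allows up to 4.86, 3.45 and 34 CPM. All 12 UMIs at 0 h were in cluster 7 cells, and at 6 d 14 were in cluster 7 and 8 in cluster 3 cells. In uHF.SB the most was 4 UMIs, at 4 d.

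Over the 4 libraries with at least 20 IB cells, 1 of 8 members was called higher in IB than in uHF.SB and 0 lower, beside 3.21% and 3.7% of 9282 genes. It was Klk10 (log2 fold change 3.52 ± 0.79 (SE), adjusted p = 0.0339). The median log2 fold change of the 8 was -0.21, beside -0.06 over all genes. Klk14 is not counted, since it passed the filter on low counts through IB alone, with 0 UMIs in IB at 4 h and 16 h and 0, 0, 1 and 1 in uHF.SB in these libraries, and its adjusted p was 0.00796 with edgeR and 0.473 with DESeq2. The Klk10 call was lost without the 16 h library (adjusted p = 0.105), without the 6 d library (0.305), with no library block (0.111), with no filter (0.325) and with another clustering seed (0.0546). Spink5 gave log2 fold change 1.58 ± 0.58 (SE), adjusted p = 0.167, and passed without the 4 h library (2.18, adjusted p = 0.0328), with DESeq2 (0.0371) and at doubled resolution (0.0205). Klk5 (-1.92, adjusted p = 0.0838) was called lower in IB without the 6 d library, with -2.96 (adjusted p = 0.000889 with edgeR), and on all 4 libraries with DESeq2 (-2.08, adjusted p = 0.00591). Klk7 (-0.99, adjusted p = 0.211) was called lower with no filter (-1.06, adjusted p = 0.0446 with edgeR).

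Of the other members, all but Klk8 had their highest IB value at 6 d. Klk7 was at 70.7, 507, 745, 544, 2304 and 2532 CPM from 0 h to 6 d, and Klk6 at 5.89, 16.2, 121, 90.6, 224 and 778 CPM from 0 h to 6 d. Of the 664 Klk6 UMIs in IB cells, 612 came from those of skin cluster 3, the uHF.SB cluster, 487 of them at 6 d. At 6 d Klk6 was at 1743 CPM in the cluster 3 cells and at 100 CPM in the cluster 7 cells. Klk5 ranged from 6.48 to 297 CPM and Klk11 from 11.8 to 168 CPM. Klk13 had 134 UMIs at 6 d and 9 at 4 d, with 1 in all the earlier libraries. Klk8 was highest at 16 h, with 417 CPM. In the same IB cells the summed level of the 10 markers of OB1, another outer bulge type, was 2728, 2117, 1442, 1246, 791 and 517 CPM from 0 h to 6 d, lower in each later library. The sum of the 5 melanocyte markers was 442 CPM at 0 h and at most 51.6 CPM later. Their part in the members' values was not tested.

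**Figure D4:**
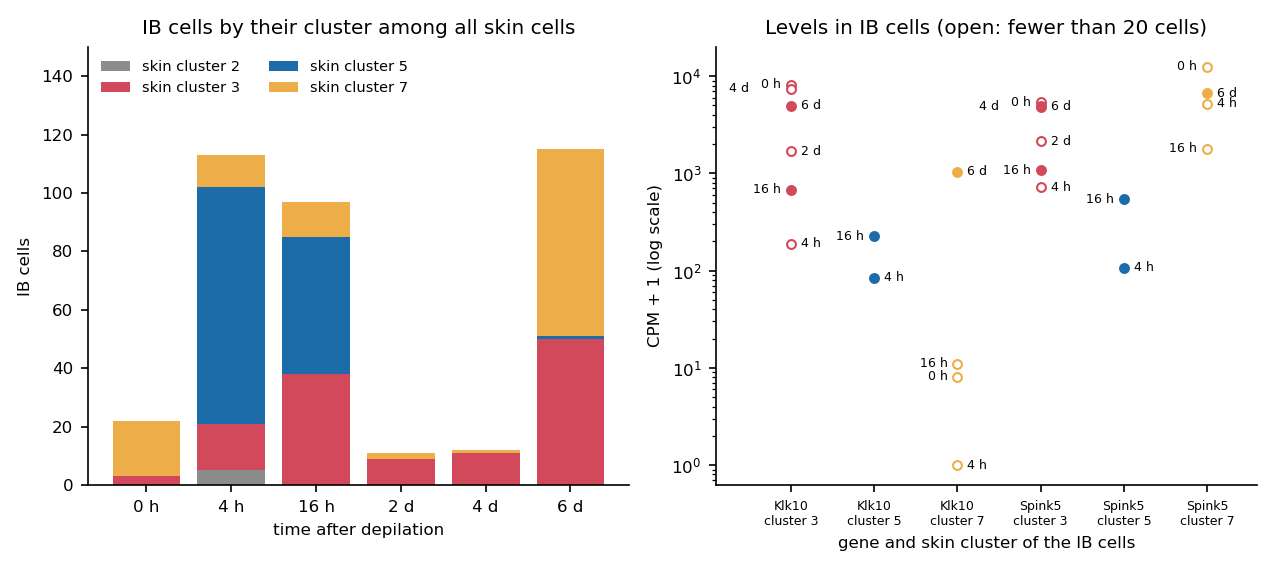
Number of IB cells by library and by their cluster among all skin cells (left), and the level of Klk10 and Spink5 in the IB cells of clusters 3, 5 and 7 (right, CPM + 1, log axis, 1 labelled point per library, open for fewer than 20 cells). Cluster 5 makes up most IB cells at 4 h, Klk10 is highest in cluster 3 cells and Spink5 is highest in cluster 7 cells at 0 h.

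The balance of inhibitor and proteases was read as the share of Spink5 in the UMIs of Spink5 and the 8 kallikreins together, a ratio of transcripts and not of active protein. In uHF.SB cells it was 66.5, 32, 20.5, 27.3, 11.4 and 20.9% from 0 h to 6 d. In granular cells it was 57.8, 47.4, 42.9, 48.7, 38.9 and 34.2% from 0 h to 6 d. The 0 h value was the highest in both, and the 95% Clopper-Pearson interval in uHF.SB was 65.2% to 67.9% at 0 h and 11.1% to 11.7% at 4 d. In cluster 3 of the uHF.SB cells the share was 51.1, 13.6, 23.9, 20.3, 10.8 and 11.1% from 0 h to 6 d, and in cluster 4 68.3, 37.3, 19.8, 32.4, 12.1 and 25.3% from 0 h to 6 d. With 1 library per time these shares had no test between times.

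Counted per cell after thinning, the share of uHF.SB cells with a UMI of any kallikrein was 25.3, 42.1, 45.7, 70.5, 88 and 91.4% from 0 h to 6 d. The share with at least 2 different kallikreins was 6.71, 12.1, 22.5, 38.9, 66.7 and 66.7% from 0 h to 6 d. Cells with a kallikrein and no Spink5 UMI made up 7.62, 21.9, 24.3, 34.2, 57.7 and 57.9% from 0 h to 6 d, and cells with Spink5 and no kallikrein 32.6, 16.6, 8.37, 5.46, 0.902 and 0.834% from 0 h to 6 d. At 0 h the second kind outnumbered the first, and from 4 h on the first was the more common. Granular cells were mostly positive for both, at 84.4, 65.2, 65, 60.4, 55.2 and 81.3% from 0 h to 6 d.

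**Figure D5:**
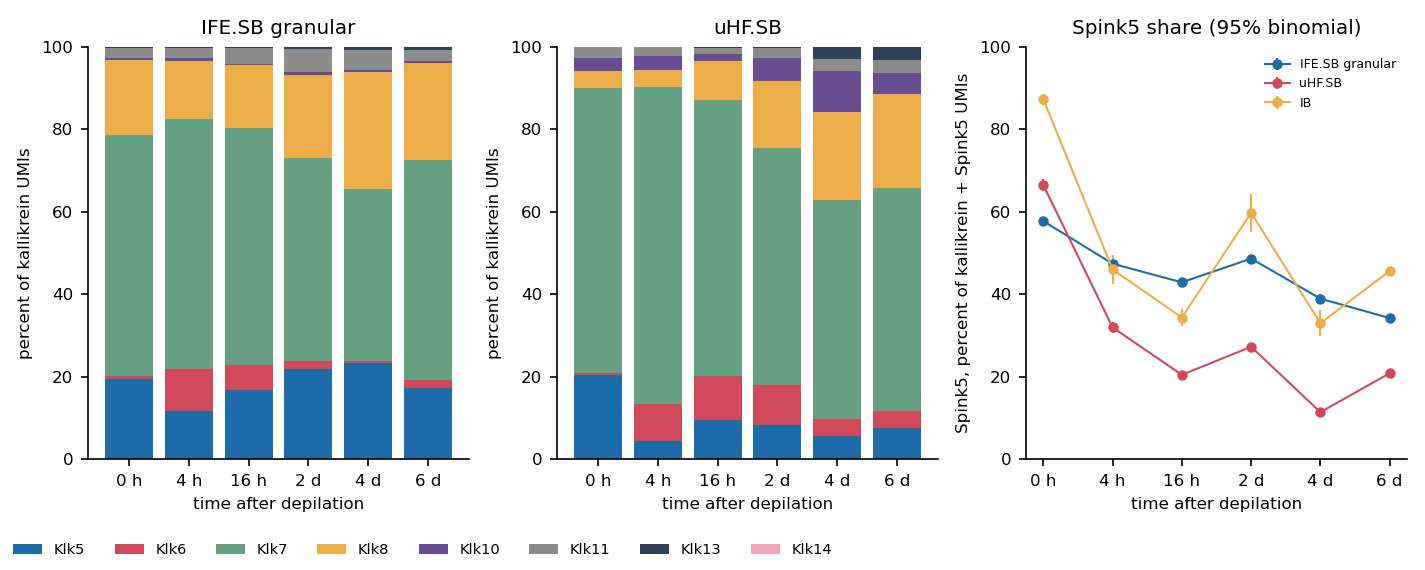
Makeup of the kallikrein UMIs in granular cells (left) and uHF.SB cells (middle) by library, in percent, and the share of Spink5 in kallikrein and Spink5 UMIs together (right, with 95% binomial intervals). Klk7 is the largest part in every bar, Klk8 goes from 4.10% to 22.8% of the uHF.SB bars, and the Spink5 share in uHF.SB goes from 66.5% at 0 h to 11.4% at 4 d.

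Klk7 was the largest part of the kallikrein UMIs in both types, at 41.8% to 60.7% in granular cells and 53.1% to 76.9% in uHF.SB cells. Klk8 made up 4.1% of them in uHF.SB cells at 0 h and 22.8% at 6 d. Thinned cells with a Klk6 UMI nearly all had Klk7 as well, 129 of 130 uHF.SB cells at 4 d and 103 of 105 at 6 d, against 73.3% and 74.2% of the cells without Klk6. In granular cells at 4 h all 33 cells with Klk6 had Klk7, against 37.9% of the others.

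Klk8 was also found in T cells, where it was at 198, 125, 206, 158, 231 and 164 CPM from 0 h to 6 d. The thinned share of T cells with Klk8 was 21.6% to 38%, while the other 7 kallikreins and Spink5 stayed at or below 4.42%. In Langerhans cells Klk8 ranged from 1.78 to 45.1 CPM and in melanocytes from 0 to 13.1 CPM. The thinned share was at most 7.89% of Langerhans cells and 3.51% of melanocytes. Median depth in a library was 2021 to 2702 UMIs a T cell, 3488 to 5007 a Langerhans cell and 1811 to 5004 a melanocyte. The Klk8 share in T cells stood above that of both other types in every library, so it was not used as the background for Klk8.

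Of the rest of the kallikrein family, 18 other Klk genes, 16 had no UMI in IFE.SB cells, and Klk9 was the main exception, at 13 to 139 CPM in granular cells. Klk9 was higher in granular than in spinous cells (log2 fold change 3.60, adjusted p = 0.000649) and lower in IB than in uHF.SB (-3.20, adjusted p = 0.0244). Klk12 stayed at or below 3.74 CPM in uHF.SB cells.

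The list of other inhibitors of serine proteases held 15 genes. In IFE.SB against IFE.B, 6 of 8 tested were higher and 1 lower (median log2 fold change 3.47), in uHF.SB against uHF.B 3 of 5 higher and 1 lower (1.36), and in IB against uHF.SB 0 of 4 higher and 1 lower (-1.12). For this list and the lists below, the shares of all genes called higher and lower were 29.6% and 33.2% in the first comparison. They were 28.7% and 30.3% in uHF.SB against uHF.B, and 3.21% and 3.7% in IB against uHF.SB. Serpina12, the serpin vaspin, which inhibits KLK7, was at 818, 294, 261, 85.6, 92.1 and 556 CPM from 0 h to 6 d in granular cells, lowest at 2 d and 4 d. It had 0 UMIs in IB cells in every library, which allows 3.45 to 51.6 CPM, and between 0.141 and 63.2 CPM in uHF.SB cells. Slpi, a secreted inhibitor of leukocyte proteases, was at 13.8, 891, 38.3, 4.73, 1.76 and 26.2 CPM from 0 h to 6 d in uHF.SB cells, with 4 h far above the rest. Spint2, which inhibits matriptase and prostasin, was 169 to 367 CPM there, and Spint1, an inhibitor of the same enzymes, 23 to 44.3 CPM.

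Among 21 other epidermal proteases, 10 of 14 tested were higher and 0 lower in IFE.SB than in IFE.B (median 1.51), 13 of 16 higher and 2 lower in uHF.SB than in uHF.B (2.13), and 1 of 14 higher and 3 lower in IB than in uHF.SB (-0.44). The one higher in IB was Prss8, which encodes prostasin (log2 fold change 1.26 ± 0.25 (SE), adjusted p = 0.0141). Tmprss4 (-4.02), Casp14, a protease of cornification (-5.26), and Ctsc (-1.96) were lower. St14, which encodes matriptase, gave log2 fold change 1.06 ± 0.31 (SE), adjusted p = 0.0776. Ctsl, a lysosomal cathepsin, was at 118, 1211, 3729.8, 1155, 1427 and 7425 CPM from 0 h to 6 d in IB cells (log2 fold change 2.19 ± 0.73 (SE), adjusted p = 0.134), and Ctsd, another, was at 63.2 to 1840.1 CPM. Prss27, a membrane serine protease gene, and Tmprss11f reached a mean of 50 CPM only in granular cells, and both were higher there than in spinous cells (log2 fold change 4.23 and 3.18). Asprv1, which encodes the filaggrin-processing protease SASPase, was at 4089, 3358, 2899.7, 1166, 541 and 7018 CPM from 0 h to 6 d in granular cells, with its low values at 2 d and 4 d as for Klk7.

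The 12 substrates and targets include the corneodesmosome proteins that kallikreins cleave and the receptor gene F2rl1. In IFE.SB against IFE.B, 8 of 11 tested were higher and 1 lower (median 1.96), in uHF.SB against uHF.B 7 of 10 higher and 1 lower (2.11), and in IB against uHF.SB 0 of 8 higher and 2 lower (-0.23). Cdsn, which encodes corneodesmosin, was at 1084, 152, 810.1, 1087, 3199 and 887 CPM from 0 h to 6 d in IB cells and at 793, 671, 793, 481, 456 and 819 CPM from 0 h to 6 d in granular cells. Its values in uHF.SB were 51.9 to 209 CPM (IB against uHF.SB log2 fold change 1.91 ± 0.58 (SE), adjusted p = 0.1). Dsg1a (-1.91) and Dsc1 (-4.28), a desmoglein and a desmocollin gene, were lower in IB than in uHF.SB. Dsg1b, a second desmoglein 1 gene, gave -0.24 (adjusted p = 0.761). Smpd1, which encodes acid sphingomyelinase, was higher in granular than in spinous cells (3.27). F2rl1, the receptor PAR-2 that KLK5 and KLK14 can activate, was at 22.1 to 84.2 CPM in IB cells. In uHF.SB against IFE.SB 0 of 10 were higher and 6 lower (-0.74), beside 15% and 17.2% of all genes tested.

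Likeness of pattern was measured as Pearson's r of log2(CPM + 1) over 84 sums of cell type and library, among 10178 genes. It is a description only, since sums of 1 library share its depth. The members themselves were left out of the ranking. The 3 other genes most like Klk5 were 4833423E24Rik (r = 0.85), Teddm3 (r = 0.85) and Skint2 (r = 0.84). For Klk6 they were Dnase1l2 (r = 0.83), Teddm3 (r = 0.83) and Prss27 (r = 0.82), and for Klk7 Teddm3 (r = 0.86), Cst6 (r = 0.85) and Slc5a1 (r = 0.84). Teddm3 stood among the 3 for Klk5, Klk6, Klk7 and Klk13, the last with Teddm3 (r = 0.72), Skint2 (r = 0.72) and Slc46a2 (r = 0.70). Klk8 was nearest to Faah (r = 0.71), Sult2b1 (r = 0.70) and Cstb (r = 0.69), and Klk10 to Tgfa (r = 0.73), Plet1 (r = 0.72) and Cwh43 (r = 0.71). Klk11 was nearest to Gltp (r = 0.82), AA986860 (r = 0.80) and Chit1 (r = 0.79). Klk14 was nearest to Lmod2 (r = 0.80), Rnase12 (r = 0.74) and Slc45a3 (r = 0.70), of which Rnase12 is one of the IB markers. Spink5 was nearest to Pdzk1ip1 (r = 0.90), Fndc9 (r = 0.87) and Cdsn (r = 0.87), the last being the gene of the corneodesmosin that Klk7 cleaves. Klk6 lay closer to Klk7 (r = 0.86), and Klk13 to Klk5 (r = 0.74), than to any of the 3 genes named for it. Among the members, Klk6 and Klk7 (r = 0.86) and Klk5 and Klk7 (r = 0.85) were the most alike, and Klk8 and Klk14 the least (r = 0.03). Klk8 with Klk5 stood at r = 0.70, just below Klk8 with Faah.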

How the data were processed

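Dissociated cells of dorsal skin were captured with 10x Chromium 3′ chemistry, 1 library for each of 6 times. The authors deposited unnormalized UMI counts per gene and barcode, made with Cell Ranger 6.1.2 on mm10 per the submitters' processing notes. No file used here assigns cells to types.

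Barcodes with 500 to 7000 genes and at most 10% mitochondrial UMIs were kept, and Scrublet (scanpy 1.11.5) doublets were removed at 0.8% per 1000 barcodes. Libraries were integrated in Seurat 5.3.0 by reciprocal PCA with 2000 variable genes and 30 components, and clustered at resolution 0.2, with follicle cells clustered again at 0.4. Before clustering, 77 genes of the lists and their families and 442 genes correlated with cycling markers were kept out. Clusters took the name of the best-scoring marker list, and near ties (under 0.1) went to the list with more markers among the 10 leading genes, a rule set after the clusters were seen. The follicle cluster 4 described in the report scored highest for spinous epidermal markers but lay in the uHF.SB cluster of the whole skin, and its cells were kept as uHF.SB.

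Counts were summed per type and library and tested in edgeR 4.0.16 (R 4.3.3; quasi-likelihood, robust, TMM, filterByExpr, Benjamini-Hochberg at 0.05 over all genes tested), with a library block between types and a 3-df spline of hours over time. Sums under 20 cells were left out of tests. DESeq2 1.42.0 was an alternative. The count tests were tested on simulated data. Shares were also computed after thinning each cell to 2000 UMIs. Intervals are exact at 95%, a count of 0 was given a limit of 3 counts, and both cover counting error only. All 9 members were named, with list genes of at least 50 CPM (mean over libraries) in a described type and the 3 genes most alike by Pearson's r. The values of 1 further list gene are not reported here. The members and lists were chosen with earlier results of these data known.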

Additional observations from a re-analysis of the deposited data

How the results depend on the processing

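The count of genes changed over time in IFE.SB, 0 in the report, was 2 on a log2 time scale, 1 on the rank of the time point, 1 with a linear trend alone and 139 with the DESeq2 likelihood ratio test, and 0 to 461 with 1 library left out (461 without 4 h). In uHF.SB, also 0, it was 51 on the log2 scale, 6 on the rank, 121 with DESeq2 and 3 with no filter, and 13 (without 2 d) to 239 (without 0 h) with 1 library left out. The cause was not tested. With 6 libraries and 2 residual degrees of freedom, a member that did not pass over time is not shown to be steady. Of the tests of a member over time, 258 alternatives kept their side of the threshold and 28 passed it.

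Without the library block, the genes called fell from 8475 to 4294 for IFE.SB against IFE.B, from 7238 to 2957 for uHF.SB against uHF.B, from 641 to 140 for IB against uHF.SB, from 3961 to 1402 for uHF.SB against IFE.SB, and from 6887 to 3133 for granular against spinous cells. With 1 library left out these counts ran from 7364 to 8593, 6188 to 7231, 246 to 575 (246 without 16 h), 2853 to 4032 and 6051 to 6673. For IB against uHF.SB the count was 1065 with no filter and 1068 at doubled resolution. Between types, 434 alternatives kept the direction and side of the threshold of a member, 8 lost the call, 11 gained it and 8 reversed. The reversals, none past the threshold in either direction, were in IB against uHF.SB Klk6 (0.89 with no library block, 0.74 without 4 h, 0.11 without 16 h), Klk11 (0.31 with no library block) and Klk8 (0.47 without 6 d), and in uHF.SB against IFE.SB Klk8 (0.36 with no library block, 0.38 without 0 h, 0.11 without 4 h). With 1 library left out, Klk6 ran from -1.66 to 0.74 and Klk8 from -0.84 to 0.47 in IB against uHF.SB, and Klk8 from -0.47 to 0.38 in uHF.SB against IFE.SB.

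Of the members' mean levels, 566 alternatives moved by less than the spread between libraries and 10 by more, all at halved resolution. Between times, no paired analysis was possible because each time point is 1 library. The comparisons between cell types were paired by library through the block. The uHF.SB against uHF.B comparison was not run under the other clustering seed, which gave no uHF.B type, and no alternative of a time test in IB was run, since the 2 d and 4 d libraries had 11 and 12 IB cells.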
